A study of Mus musculus with 15 samples.

Results

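The genes described here are Wnt ligands, their receptors and co-receptors, secreted inhibitors, intracellular transducers, TCF/LEF factors and feedback targets, in pituitary RNA of newborn mice. They are a named list of 45 genes, and 44 of them were measured among 18193 genes on the arrays. Tcf7 is not analysed here. Each gene is represented by 1 probe set, the one with the highest mean over all 15 arrays, and the rule for the list is by name and role, with no threshold on a measured value. The list was, however, chosen with earlier results of these data known. Values are log2 RMA signals from an Affymetrix mouse expression array, on which a difference of 1 is a 2-fold difference in signal. Signals of different probe sets are not on a common scale, so levels are compared between groups and not between genes.

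Wnt ligands are secreted glycoproteins that bind Frizzled receptors, and in the canonical pathway also the co-receptors Lrp5 and Lrp6. In the absence of ligand a complex of Axin, Apc and kinases marks beta-catenin for destruction. When a ligand binds, Dishevelled proteins are recruited, beta-catenin accumulates and it acts with TCF/LEF factors on target genes, among them Axin2, whose product restores the destruction complex. In the developing mouse pituitary, Wnt5a from the ventral diencephalon shapes the gland, and loss of Tcf7l2 enlarges it.

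The 3 groups hold 5 RNA pools each, all from pituitaries of pups at postnatal day 1, with 1 array per pool. Prop1df/df pups are homozygous for the df allele, on the DF/B background. Pit1dw/dw pups are homozygous for dw, the Snell dwarf allele of the POU-domain factor Pit1, on the DW/J background. Pit1+/+ pups are wild type at Pit1, also on DW/J. All mice received a high fat chow, and the sources used here give neither the number nor the sex of the pituitaries in a pool. Xist, an RNA of female cells, was 8.55 to 11.23 in Prop1df/df pools. It was 4.20 and 3.89 in Pit1dw/dw pools 2 and 3 and 3.69 in Pit1+/+ pool 4. In the other pools of these 2 groups it was 9.60 to 11.14. The sexes are thus not evenly spread over the groups, and a fit with the Xist level is given below. A wild type on DF/B is not analysed here, so in both comparisons that involve Prop1df/df the genotype and the strain cannot be told apart. Each group stands in 2 of the 3 comparisons, so the comparisons share arrays. Nothing in the sources says how the pools were drawn, so p-values measure the spread between pools.

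The mutated genes themselves are not analysed here, so the labels were read against hormone genes of the Pit1 lineage. Growth hormone (Gh) was 13.58, 14.07, 14.03, 8.99 and 10.24 in Prop1df/df pools 1 to 5, 7.15 to 10.31 in Pit1dw/dw and 14.15 to 14.28 in Pit1+/+. Thyrotropin beta (Tshb) was 9.83, 9.89, 9.68, 6.28 and 7.17 in Prop1df/df pools 1 to 5, 6.20 to 7.01 in Pit1dw/dw and 11.67 to 12.29 in Pit1+/+. Prop1df/df pools 1 to 3 thus stand apart from pools 4 and 5, and calls of the listed genes that end without them are given with that value. Pool 1 of Pit1+/+ has a genotype entry of Prop1df/df that goes against its title, source and strain, and it was kept in the group of its title. Prph, a gene of peripheral sensory neurons, was 10.46 and 8.93 in Prop1df/df pools 3 and 4, 7.79 and 9.89 in Pit1dw/dw pools 2 and 3 and 10.59 in Pit1+/+ pool 3, and at or below 4.96 in the other 10 pools. Another neuronal gene, Nefl, was 10.76 in Pit1dw/dw pool 5, beside 9.61 in pool 2. That pool 5 is low in Prph (3.51), so it was kept where pools high in Prph were left out. Array medians lay between 4.31 and 4.43, and the number of arrays limits the precision.

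In Prop1df/df pituitaries the feedback target Axin2 and the receptor Fzd5 were lower than in both Pit1 groups, while the receptor Fzd4 and the secreted inhibitors Sfrp1 and Sfrp4 were higher than in both. Against Pit1+/+ the receptors Fzd1 and Fzd7 and the Dickkopf family member Dkk3 were higher as well. In Prop1df/df versus Pit1+/+, 8 of 44 genes passed an adjusted p of 0.05 in limma (18.2%), against 10.6% of all genes tested. Of these, 6 rose (13.6%, against 3.25% of all genes) and 2 fell (4.55%, against 7.31%). A change of at least 2-fold was reached by 5 of the 8 (11.4% of the list, against 2.81%). The median change over the 44 genes was 0.11, beside -0.04 over all genes. Since the list was chosen with earlier results of these data known, its shares beside those of all genes describe it and do not test it.

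Set against Pit1dw/dw, 5 of 44 genes passed in Prop1df/df (11.4%, against 6.26% of all genes tested). There 3 rose (6.82%, against 2.21%) and 2 fell (4.55%, against 4.05%), and 3 reached 2-fold (6.82%, against 2.04%). The median change was 0.11, beside -0.02 over all genes. In Pit1dw/dw versus Pit1+/+, where both groups are on DW/J, 0 of 44 passed in limma and the smallest adjusted p was 0.366, against 0.77% of all genes past the threshold. At an unadjusted p under 0.05 there were 4 of 44, beside 1539 of all genes (8.46%). Those 4 were Fzd4 (0.38), Sfrp2 (0.43), Wnt10a (-0.35) and Dvl1 (-0.26), named here after their values were seen. A role holds 2 to 10 measured genes. At the shares of all genes given above, a role with 0 calls therefore says little about that role.

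**Figure D1:**
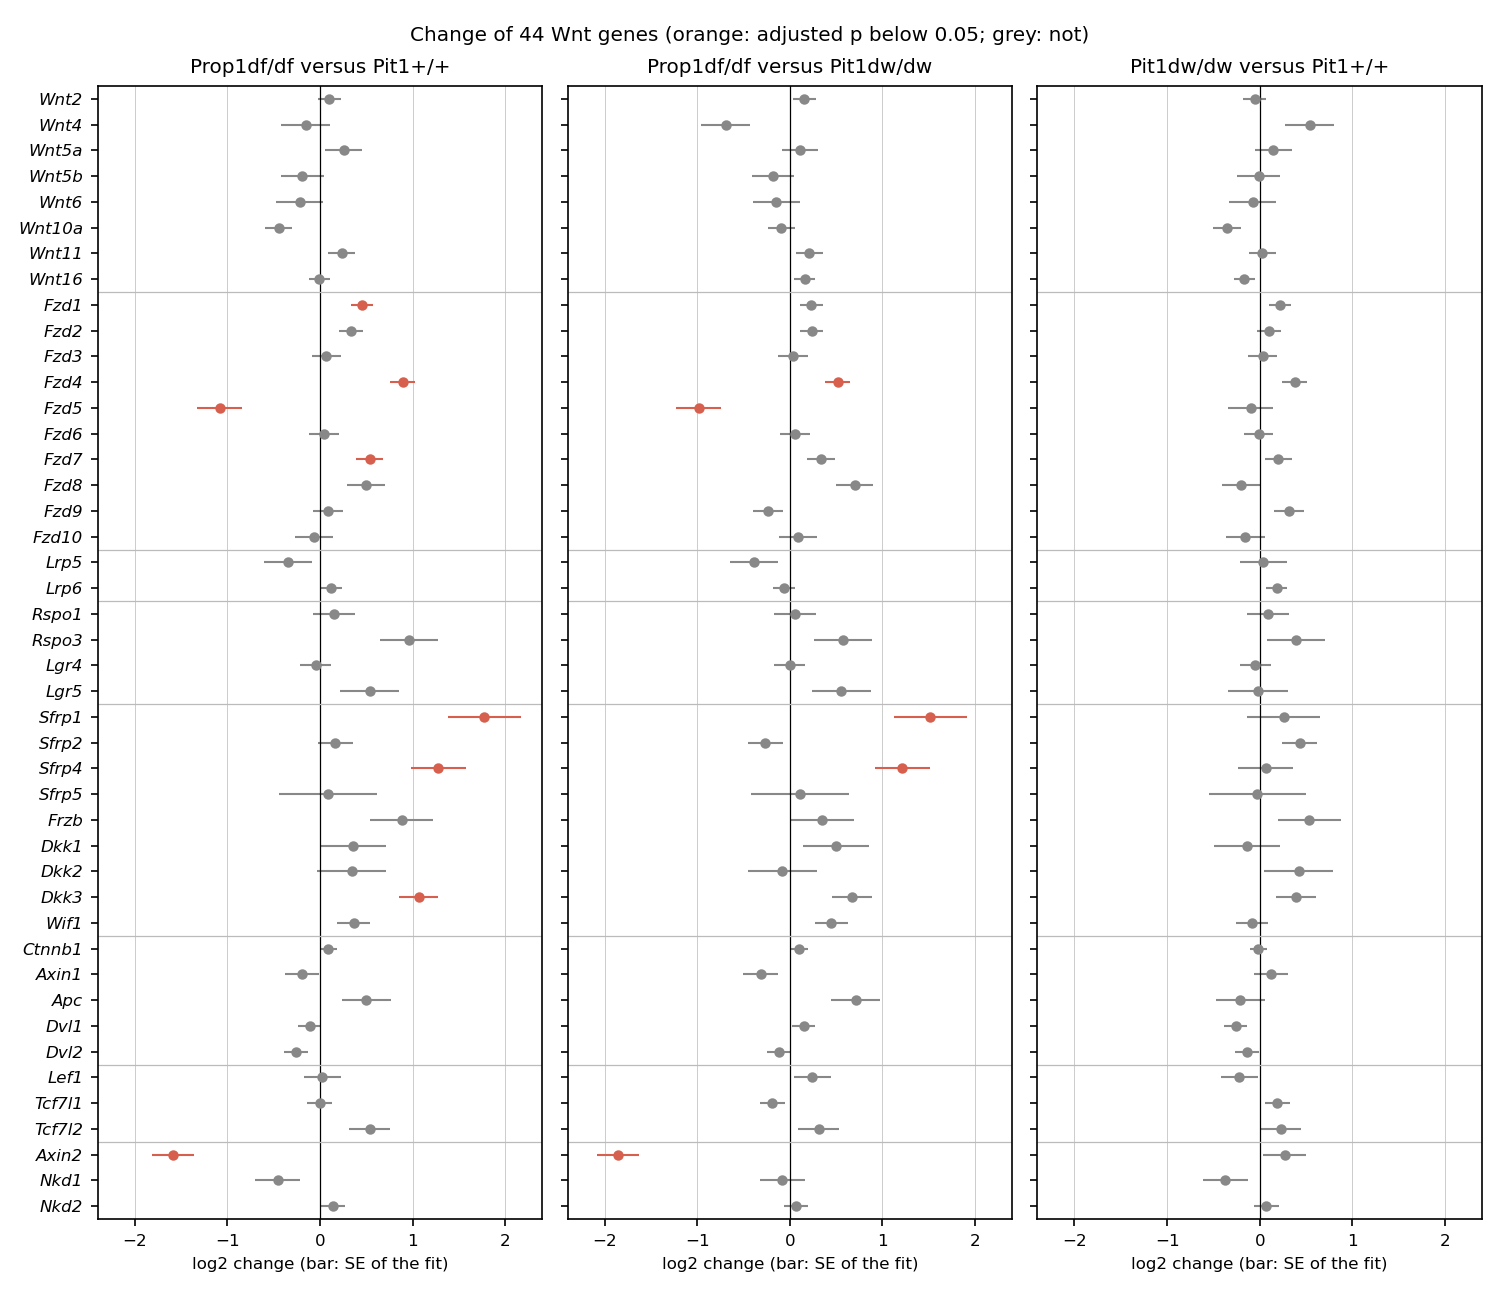
Log2 change of the 44 Wnt genes in the 3 comparisons, grouped by role from ligands at the top to feedback targets at the bottom, with bars for the standard error of the fit. Orange points mark an adjusted p below 0.05, which 8 genes reach in Prop1df/df versus Pit1+/+, 5 in Prop1df/df versus Pit1dw/dw and 0 in Pit1dw/dw versus Pit1+/+.

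The pools of Prop1df/df and Pit1+/+ did not overlap for 4 genes, Axin2, Fzd4, Sfrp1 and Dkk3 (9.09% of the list, against 8.01% of all genes). This held in Prop1df/df versus Pit1dw/dw for 3, Axin2, Sfrp1 and Sfrp4 (6.82%, against 8.5% of all genes), and in Pit1dw/dw versus Pit1+/+ for 1, Fzd4 (2.27%, against 2.78%). These shares lie near those of all genes. A whole gland was sampled, so fewer cells of a type and less RNA per cell cannot be told apart in any of these values.

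Among the ligands, 0 of 8 passed in any of the 3 comparisons. Wnt5a, which signals mostly outside the beta-catenin pathway, averaged 7.15 ± 0.27 in Prop1df/df, 7.04 ± 0.30 in Pit1dw/dw and 6.90 ± 0.40 in Pit1+/+ (SD, n = 5 each). The groups overlap, and the change against Pit1+/+ was 0.26 (SE 0.20, adjusted p = 0.464). Its relative Wnt5b averaged 6.77 ± 0.23 in Prop1df/df, 6.95 ± 0.25 in Pit1dw/dw and 6.96 ± 0.59 in Pit1+/+. Wnt4 averaged 4.53 ± 0.51 in Prop1df/df, 5.22 ± 0.42 in Pit1dw/dw and 4.68 ± 0.44 in Pit1+/+, and its change of -0.69 in Prop1df/df versus Pit1dw/dw did not pass (SE 0.26, adjusted p = 0.147). Wnt2, Wnt10a, Wnt11 and Wnt16 were dim, with means in every group below 4.37, the median of all values on the arrays. Wnt10a was 2.78 ± 0.15 in Prop1df/df, 2.87 ± 0.06 in Pit1dw/dw and 3.22 ± 0.37 in Pit1+/+, and neither change against Pit1+/+ passed (-0.45, adjusted p = 0.0678, in Prop1df/df and -0.35, adjusted p = 0.503, in Pit1dw/dw). The Wnt10a change in Prop1df/df passed without Pit1+/+ pool 3 (-0.52, adjusted p = 0.0411) or pool 5 (-0.52, adjusted p = 0.0275), the lowest pools of that group. It also passed with quantiles normalised again (-0.47, adjusted p = 0.0453) and with array weights (-0.69, adjusted p = 0.00339). The Wnt4 change against Pit1dw/dw passed without Prop1df/df pool 4, the highest of its group (-0.89, adjusted p = 0.0455). It passed with array weights as well (-0.77, adjusted p = 0.0493).

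R-spondins are secreted proteins that bind Lgr receptors and raise the amount of Frizzled at the cell surface, and of these 4 genes 0 passed in any comparison. Rspo3 averaged 7.88 ± 0.36 in Prop1df/df, 7.30 ± 0.46 in Pit1dw/dw and 6.92 ± 0.75 in Pit1+/+. Its change against Pit1+/+ was 0.96 (SE 0.31, adjusted p = 0.0606), just short of the threshold. It passed with each array centred on its median (adjusted p = 0.0439), with quantiles normalised again (0.0394), with the mean of its probe sets (0.65, adjusted p = 0.0275) and with dim genes left out (0.0495). Without Prop1df/df pool 4 it was 1.12 (adjusted p = 0.039), without Pit1+/+ pool 1 it was 1.15 (adjusted p = 0.0317), and without Pit1+/+ pool 4 it was 1.11 (adjusted p = 0.0457). That Prop1df/df pool is the lowest of its group, and those Pit1+/+ pools are the highest of theirs. The receptor Lgr4 was 8.81 ± 0.25 in Prop1df/df, 8.81 ± 0.28 in Pit1dw/dw and 8.86 ± 0.27 in Pit1+/+. Lgr5, a stem cell marker in the gut, was 4.83 ± 0.58 in Prop1df/df, 4.27 ± 0.31 in Pit1dw/dw and 4.29 ± 0.72 in Pit1+/+, where 1 pool stood at 5.53 and the other 4 at or below 4.25. Without that pool, Pit1+/+ pool 5, the Lgr5 change was 0.85 (adjusted p = 0.0319), against 0.54 with it (adjusted p = 0.33). Leaving out the highest pool of the lower group raises the difference by construction. With array weights the Lgr5 change was 0.88 (adjusted p = 0.0137).

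Of the 10 Frizzled receptors, 3 rose and 1 fell in Prop1df/df versus Pit1+/+, beside 3.25% and 7.31% of all genes, and 6 did not pass. Fzd4, the receptor of Norrin as well as of Wnts and needed for retinal vessels, was 8.64, 8.68, 7.999, 8.49 and 8.38 in Prop1df/df pools 1 to 5. It was 7.70, 8.08, 7.92, 8.16 and 7.74 in Pit1dw/dw pools and 7.64, 7.49, 7.45, 7.69 and 7.43 in Pit1+/+ pools. Every Prop1df/df pool lies above every Pit1+/+ pool, the Pit1dw/dw pools lie in between, and the ranges of the 2 mutants overlap between 7.999 and 8.16. Fzd4 rose 1.86-fold in Prop1df/df against Pit1+/+ (log2 change 0.90, SE 0.13, adjusted p = 0.000473) and 1.43-fold against Pit1dw/dw (0.52, SE 0.13, adjusted p = 0.0304). The 5 Pit1dw/dw pools were also all above the Pit1+/+ pools, by 0.38, and this did not pass (SE 0.13, adjusted p = 0.366). A second Fzd4 probe set, fitted among all single probe sets, rose by 1.11 against Pit1+/+ (adjusted p = 0.00265) and by 0.75 against Pit1dw/dw (adjusted p = 0.0447). The rise against Pit1+/+ passed in each of 23 alternatives, without Prop1df/df pools 1 to 3 among them (0.89, adjusted p = 0.00454). The rise against Pit1dw/dw did not pass without them (0.52, adjusted p = 0.107), nor without any single one of Prop1df/df pools 1, 2, 4 and 5 or Pit1dw/dw pools 1, 3 and 5 (adjusted p 0.0512 to 0.0858).

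Fzd5, a receptor needed in the mouse for eye and yolk sac vessel development, moved the other way. It was 6.90, 7.03, 5.95, 6.14 and 5.68 in Prop1df/df pools, 7.57, 7.58, 7.30, 7.26 and 6.93 in Pit1dw/dw pools, and 7.59, 7.74, 6.96, 7.39 and 7.45 in Pit1+/+ pools. Prop1df/df pools 3 to 5 lie about 1 unit below pools 1 and 2, and pool 2 overlaps the lowest pool of each Pit1 group. Fzd5 fell 2.12-fold against Pit1+/+ (log2 change -1.08, SE 0.24, adjusted p = 0.00804) and 1.98-fold against Pit1dw/dw (-0.98, SE 0.24, adjusted p = 0.0206). Without Prop1df/df pools 1 to 3 the falls were -1.51 (adjusted p = 0.00217) and -1.41 (adjusted p = 0.00464). Without the 5 pools high in Prph they were -1.004 (adjusted p = 0.0563) and -0.71 (adjusted p = 0.232). The fall against Pit1dw/dw also missed the threshold without Prop1df/df pool 5 (adjusted p = 0.0538), Pit1dw/dw pool 1 (0.0524) or Pit1dw/dw pool 2 (0.0596).

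Fzd1 and Fzd7, both widely expressed Wnt receptors, were higher in Prop1df/df than in Pit1+/+ by less than 2-fold. Fzd1 was 9.20, 9.07, 8.62, 8.68 and 8.997 in Prop1df/df pools, 8.77, 8.73, 8.51, 8.66 and 8.75 in Pit1dw/dw pools, and 8.63, 8.53, 8.27, 8.44 and 8.42 in Pit1+/+ pools (log2 change against Pit1+/+ 0.45, SE 0.12, adjusted p = 0.0234). Fzd7 was 8.71, 8.84, 8.36, 8.15 and 8.57 in Prop1df/df pools, 8.47, 8.19, 7.88, 8.46 and 7.96 in Pit1dw/dw pools, and 8.01, 8.03, 7.94, 7.80 and 8.18 in Pit1+/+ pools (0.54, SE 0.15, adjusted p = 0.032). In both, Prop1df/df pools 1, 2 and 5 are the highest of all 15 and pools 3 and 4 reach down to the Pit1 groups. The Fzd1 call ended without any single one of Prop1df/df pools 1, 2 and 5 or Pit1+/+ pools 3 and 4 (adjusted p 0.051 to 0.0662). The Fzd7 call ended without any single one of Prop1df/df pools 1, 2 and 5 or Pit1+/+ pools 1 to 4 (adjusted p 0.0582 to 0.0878). Without Prop1df/df pools 1 to 3 the changes were 0.38 for Fzd1 (adjusted p = 0.173) and 0.37 for Fzd7 (adjusted p = 0.357). Their second probe sets are dim and changed by -0.19 (Fzd1) and -0.23 (Fzd7).

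Among the Frizzled genes that did not pass, Fzd8 averaged 6.11 ± 0.29 in Prop1df/df, 5.41 ± 0.31 in Pit1dw/dw and 5.61 ± 0.41 in Pit1+/+. Its change in Prop1df/df versus Pit1dw/dw was 0.70 (SE 0.20, adjusted p = 0.0526), and without Prop1df/df pool 5, the lowest of its group, it was 0.83 (adjusted p = 0.0247). It also passed without Pit1dw/dw pool 3, the highest of its group (0.82, adjusted p = 0.0299). It passed as well with each array centred on its median (adjusted p = 0.0335), with quantiles normalised again (0.0196), with dim genes left out (0.0443), with array weights (0.00991) and with only the 2 groups compared in the fit (0.0324). Against Pit1+/+ the Fzd8 change was 0.50 (adjusted p = 0.137), and 0.67 without Pit1+/+ pool 3, the highest of its group (adjusted p = 0.0268). A second Fzd8 probe set of similar signal did not show this rise. It averaged 5.52 in Prop1df/df, 5.49 in Pit1dw/dw and 5.67 in Pit1+/+. Its change against Pit1+/+ was -0.16 (adjusted p = 0.782 in limma over all probe sets). Fzd2 averaged 10.49 ± 0.21 in Prop1df/df, 10.26 ± 0.21 in Pit1dw/dw and 10.16 ± 0.14 in Pit1+/+ (0.34 against Pit1+/+, adjusted p = 0.108, and 0.41, adjusted p = 0.0481, without Prop1df/df pool 3, the lowest of its group). Fzd3 differed by 0.07 and Fzd6 by 0.04 in Prop1df/df versus Pit1+/+, and Fzd9 and Fzd10 were dim in all groups. Of the co-receptors, Lrp6 was 9.38 ± 0.23 in Prop1df/df, 9.44 ± 0.09 in Pit1dw/dw and 9.26 ± 0.15 in Pit1+/+, and Lrp5 was dim.

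Of the 9 secreted inhibitors, 3 rose and 0 fell in Prop1df/df versus Pit1+/+, beside 3.25% and 7.31% of all genes. The 9 changes lay between 0.09 and 1.77. In Prop1df/df versus Pit1dw/dw 2 rose, beside 2.21% of all genes, and the changes lay between -0.26 and 1.52. Sfrp1, a secreted Frizzled-related protein that binds Wnts through its own Frizzled-like domain, was 8.79, 8.61, 9.21, 9.25 and 8.33 in Prop1df/df pools. It was 6.68, 6.64, 7.83, 7.48 and 8.0 in Pit1dw/dw pools and 7.77, 5.72, 8.03, 7.28 and 6.52 in Pit1+/+ pools. The Prop1df/df pools lie above all 10 others, which spread over more than 2 units. Sfrp1 rose 3.42-fold against Pit1+/+ (log2 change 1.77, SE 0.39, adjusted p = 0.00809) and 2.86-fold against Pit1dw/dw (1.52, SE 0.39, adjusted p = 0.0301).

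Sfrp4, of the same family, was 8.07, 8.27, 7.73, 7.04 and 7.57 in Prop1df/df pools. It was 6.73, 6.35, 6.61, 6.25 and 6.66 in Pit1dw/dw pools and 7.14, 5.47, 5.95, 7.12 and 6.60 in Pit1+/+ pools. All Prop1df/df pools exceed all Pit1dw/dw pools, and the lowest of them, pool 4, lies below 2 Pit1+/+ pools. The rise was 2.43-fold against Pit1+/+ (log2 change 1.28, SE 0.30, adjusted p = 0.011) and 2.32-fold against Pit1dw/dw (1.22, SE 0.30, adjusted p = 0.0213).

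Dkk3, a divergent member of the Dickkopf family, was 9.41, 9.27, 8.99, 9.05 and 8.62 in Prop1df/df pools, 8.07, 8.16, 8.50, 8.64 and 8.62 in Pit1dw/dw pools, and 8.39, 7.34, 8.10, 8.51 and 7.67 in Pit1+/+ pools. It rose 2.09-fold in Prop1df/df against Pit1+/+ (log2 change 1.06, SE 0.22, adjusted p = 0.00435), and its change of 0.67 against Pit1dw/dw did not pass (adjusted p = 0.0818). The latter passed with array weights (0.70, adjusted p = 0.022) and with only the 2 groups compared in the fit (adjusted p = 0.0324). Pit1+/+ pool 2 is the lowest of its group for Sfrp1, Sfrp4 and Dkk3. Without it the changes against Pit1+/+ were 1.44 for Sfrp1 (adjusted p = 0.0176), 1.03 for Sfrp4 (adjusted p = 0.0258) and 0.90 for Dkk3 (adjusted p = 0.0108).

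Without Prop1df/df pools 1 to 3, the changes against Pit1+/+ were 1.73 for Sfrp1 (adjusted p = 0.122), 0.85 for Sfrp4 (adjusted p = 0.281) and 0.83 for Dkk3 (adjusted p = 0.146), and none passed with the 2 Prop1df/df pools that remained. Against Pit1dw/dw, Sfrp1 then changed by 1.47 (adjusted p = 0.254) and Sfrp4 by 0.78 (adjusted p = 0.401). The Sfrp1 call against Pit1dw/dw also ended without any single one of Prop1df/df pools 1, 3 and 4 or Pit1dw/dw pools 1, 2 and 4 (adjusted p 0.0558 to 0.0863). The Sfrp4 call against Pit1dw/dw ended without any single one of Prop1df/df pools 1 and 2 or Pit1dw/dw pools 2 and 4 (adjusted p 0.0562 to 0.063). Without the pools high in Prph, the changes against Pit1dw/dw were 1.19 for Sfrp1 (adjusted p = 0.188) and 1.42 for Sfrp4 (adjusted p = 0.0694). Sfrp1 has 4 more probe sets, of which the brightest differed by 1.19 against Pit1+/+ (adjusted p = 0.0667 over all probe sets) and a dim one rose by 0.73 (adjusted p = 0.0239). The second probe set of Dkk3 differed by 0.76 (adjusted p = 0.101).

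**Figure D2:**
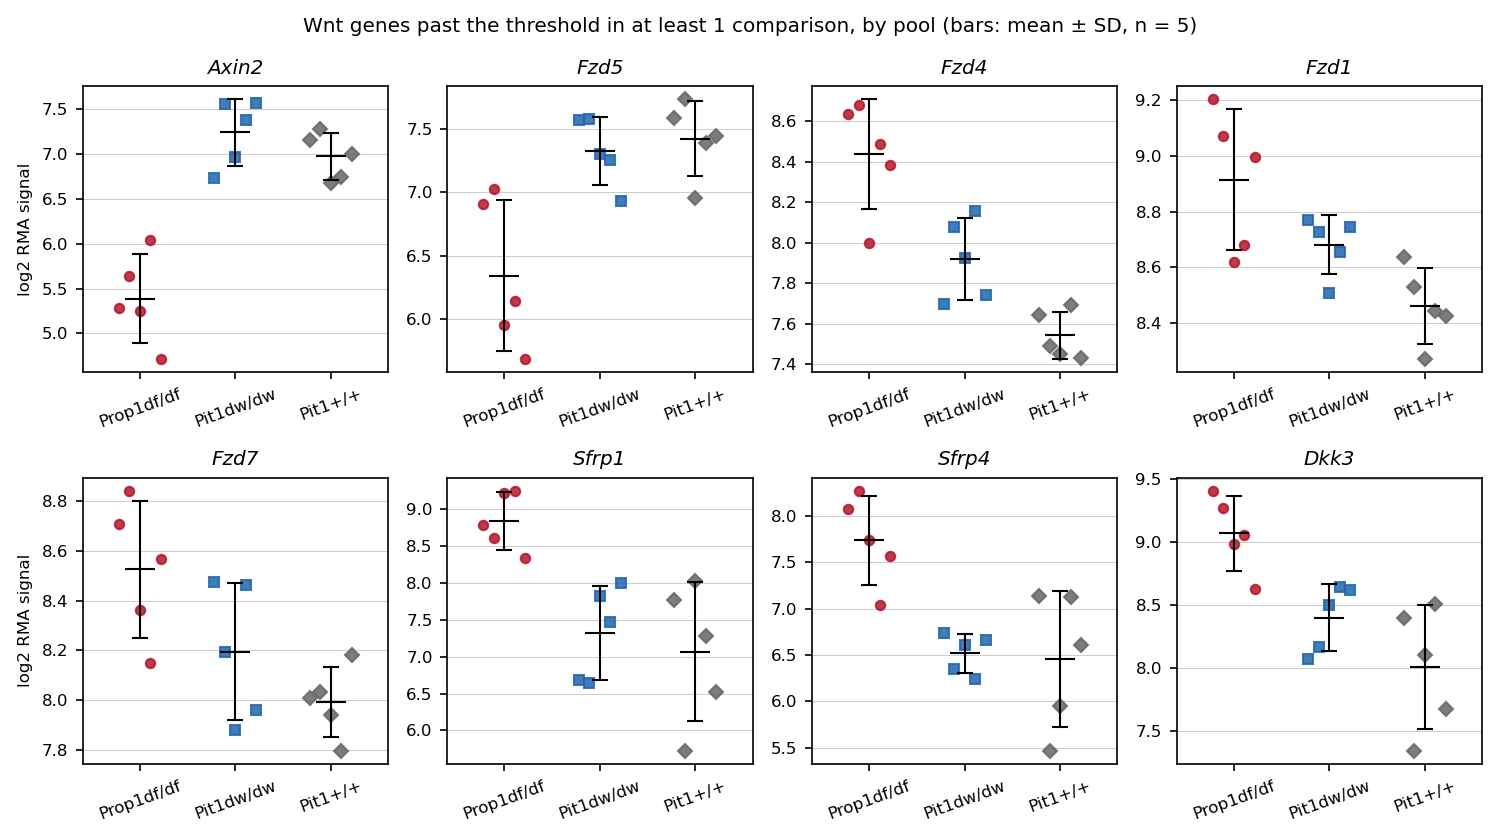
Log2 RMA signal of the 8 Wnt genes past the threshold in at least 1 comparison, 1 point per pool, with group mean and SD (n = 5). Prop1df/df pools lie lowest for Axin2 (4.71 to 6.04) and for the most part for Fzd5, and highest for Sfrp1 (8.33 to 9.25), while the 2 Pit1 groups overlap in all panels except that of Fzd4.

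The other 6 inhibitors did not pass in any of the 3 comparisons as fitted. Frzb, a further Frizzled-related protein, averaged 5.42 ± 0.39 in Prop1df/df, 5.07 ± 0.48 in Pit1dw/dw and 4.53 ± 0.84 in Pit1+/+. Its change against Pit1+/+ was 0.88 (adjusted p = 0.118), and without Pit1+/+ pool 3, at 5.99 the highest of its group, it was 1.25 (adjusted p = 0.00416). Sfrp2 was 9.49 ± 0.16 in Prop1df/df, 9.75 ± 0.42 in Pit1dw/dw and 9.32 ± 0.28 in Pit1+/+, with Pit1dw/dw the highest. Dkk2, a Dickkopf protein that binds Lrp6, was 6.33 ± 0.41 in Prop1df/df, 6.41 ± 0.73 in Pit1dw/dw and 5.99 ± 0.78 in Pit1+/+. Dkk1, Sfrp5 and Wif1 were dim in all groups.

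Genes of mesenchyme and matrix were higher in Prop1df/df as well. All 8 genes of that marker list (Col1a1, Col1a2, Col3a1, Lum, Dcn, Pdgfra, Twist1 and Prrx1) were measured, and none of them was dim in any group. The list's mean was 10.16 to 10.52 in Prop1df/df pools, 9.62 to 10.22 in Pit1dw/dw pools and 9.08 to 10.06 in Pit1+/+ pools. Its summed signal, as log2, was 14.44 to 14.71 in Prop1df/df, 13.94 to 14.45 in Pit1dw/dw and 13.24 to 14.37 in Pit1+/+. Prop1df/df thus lies above Pit1+/+ without overlap and overlaps Pit1dw/dw, and Pit1+/+ pool 2 is the lowest pool of all. A progenitor list (Sox2, Sox9, Hes1, Cdh26 and S100b measured, 1 of them dim) was higher too, at means of 6.88 to 7.23 in Prop1df/df, 6.84 to 7.08 in Pit1dw/dw and 6.39 to 6.74 in Pit1+/+. Its summed signal, as log2, was 10.19 to 10.69 in Prop1df/df, 10.08 to 10.32 in Pit1dw/dw and 9.87 to 10.14 in Pit1+/+, and its part in the Wnt values was not tested. The means of 6 measured bone and cartilage genes overlapped, at 6.12 to 7.95 in Prop1df/df, 4.84 to 7.33 in Pit1dw/dw and 3.89 to 6.91 in Pit1+/+. On average this list was higher in Prop1df/df, by 1.36 against Pit1+/+ and 1.55 against Pit1dw/dw. Of its genes, Ibsp overlapped between the groups. Col2a1 was higher in Prop1df/df (8.21 to 10.51) than in both Pit1 groups, which overlapped (6.71 to 7.42 in Pit1dw/dw and 6.23 to 7.57 in Pit1+/+). The other genes of this list are not given singly. The part of this list in the Wnt values was not tested.

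A fit with the list's mean as a covariate was added later, and in it 2 of 44 genes passed in Prop1df/df versus Pit1+/+, Axin2 (-1.33, adjusted p = 0.0376) and Fzd4 (0.82, adjusted p = 0.0361). In Prop1df/df versus Pit1dw/dw 1 passed, Axin2 (-1.70, adjusted p = 0.00204). The change against Pit1+/+ then was 0.85 for Sfrp1 (adjusted p = 0.447), 0.38 for Sfrp4 (adjusted p = 0.608) and 0.43 for Dkk3 (adjusted p = 0.384). It was 0.40 for Fzd1 (adjusted p = 0.314), 0.44 for Fzd7 (adjusted p = 0.384) and -1.05 for Fzd5 (adjusted p = 0.154). Against Pit1dw/dw, Sfrp1 changed by 0.94 (adjusted p = 0.257), Sfrp4 by 0.66 (adjusted p = 0.182), Fzd4 by 0.47 (adjusted p = 0.155) and Fzd5 by -0.97 (adjusted p = 0.0982). Over all genes, 497 passed against Pit1+/+ with the covariate and 1920 without it, and 637 and 1139 against Pit1dw/dw. The list's mean does not overlap between Prop1df/df and Pit1+/+, so group and list mean are largely tied in that comparison. A call that ends in this fit thus cannot show that the list accounts for the change. Against Pit1+/+, Fzd5 changed by -1.05 with the covariate and -1.08 without it, though its call ended.

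**Figure D3:**
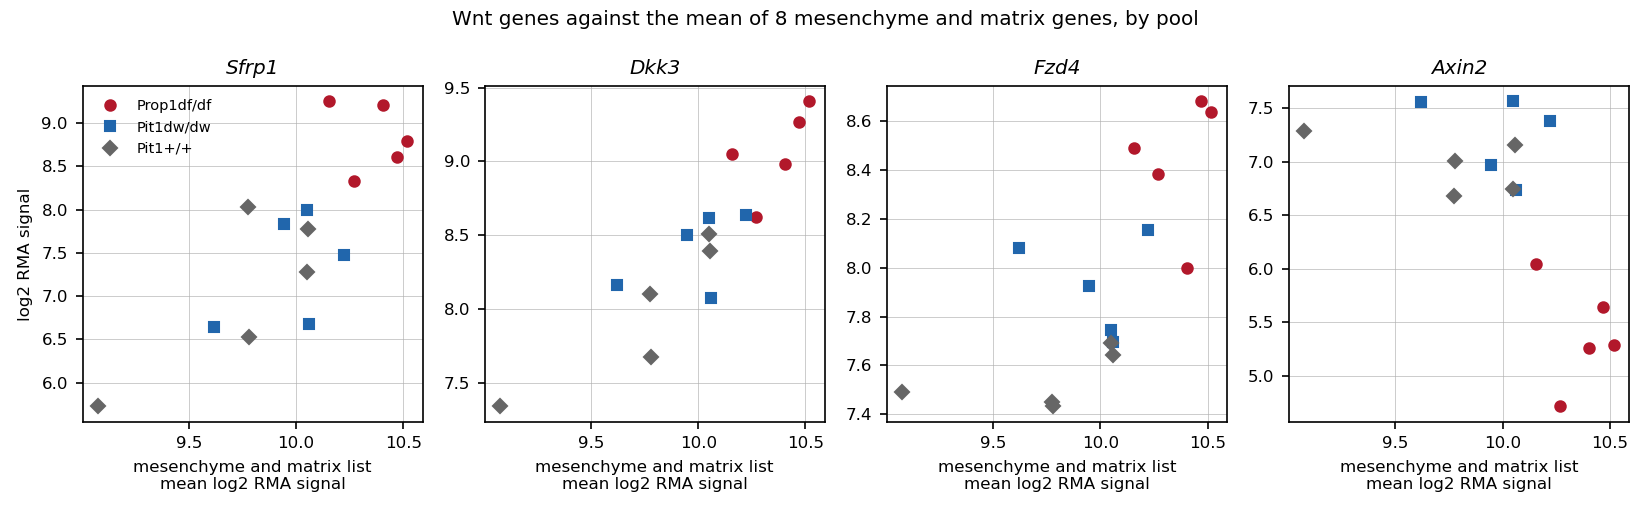
Log2 RMA signal of Sfrp1, Dkk3, Fzd4 and Axin2 (vertical axes) against the mean signal of the 8 mesenchyme and matrix genes (horizontal axis), 1 point per pool. Pit1+/+ pool 2, at a list mean of 9.08, is also the lowest pool for Sfrp1 (5.72) and Dkk3 (7.34), and the Prop1df/df pools lie at list means of 10.16 to 10.52. Within Prop1df/df, pool 4 has the lowest list mean and the highest Sfrp1 (9.25). Pool 1 there has the highest list mean and the highest Dkk3 (9.41), with Sfrp1 at 8.79.

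The intracellular transducers did not differ past the threshold, with 0 of 5 in each comparison. Ctnnb1, which encodes beta-catenin, was 12.99, 12.80, 12.87, 12.73 and 13.06 in Prop1df/df pools. It was 12.95, 12.76, 12.74, 12.81 and 12.67 in Pit1dw/dw pools and 12.72, 12.78, 12.76, 12.75 and 12.98 in Pit1+/+ pools. The 3 groups overlap almost in full, and the changes in Prop1df/df were 0.09 against Pit1+/+ (SE 0.09, adjusted p = 0.604) and 0.10 against Pit1dw/dw (SE 0.09, adjusted p = 0.582). Apc, a scaffold of the destruction complex, averaged 8.91 ± 0.33 in Prop1df/df, 8.20 ± 0.38 in Pit1dw/dw and 8.41 ± 0.61 in Pit1+/+ (0.71 against Pit1dw/dw, adjusted p = 0.137). Its change against Pit1+/+ was 0.50 (adjusted p = 0.263), and without Pit1+/+ pool 3, the highest of its group, it was 0.75 (adjusted p = 0.0408). Axin1, the constitutive relative of Axin2, was 4.69 ± 0.41 in Prop1df/df, 5.01 ± 0.22 in Pit1dw/dw and 4.89 ± 0.26 in Pit1+/+.

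Of the TCF/LEF factors, which carry beta-catenin to DNA, 0 of 3 measured passed in any comparison. Tcf7l2 averaged 8.45 ± 0.40 in Prop1df/df, 8.14 ± 0.25 in Pit1dw/dw and 7.92 ± 0.47 in Pit1+/+. The change of 0.54 against Pit1+/+ did not pass (SE 0.22, adjusted p = 0.15), and it passed without Prop1df/df pool 3 (0.71, adjusted p = 0.0336) or without Pit1+/+ pool 5 (0.73, adjusted p = 0.0188). Those are the lowest Prop1df/df pool and the highest Pit1+/+ pool for this gene. With array weights the Tcf7l2 change passed too (0.76, adjusted p = 0.00579). Lef1, itself induced by Wnt in several tissues, was 6.87 ± 0.27 in Prop1df/df, 6.62 ± 0.19 in Pit1dw/dw and 6.84 ± 0.49 in Pit1+/+. Tcf7l1, which mostly acts as a repressor, was 7.05 ± 0.12 in Prop1df/df, 7.24 ± 0.13 in Pit1dw/dw and 7.05 ± 0.31 in Pit1+/+.

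Axin2 had the smallest adjusted p of the list in both comparisons of Prop1df/df. It was 5.29, 5.64, 5.25, 6.04 and 4.71 in Prop1df/df pools 1 to 5. It was 6.73, 7.56, 6.97, 7.38 and 7.57 in Pit1dw/dw pools and 7.16, 7.28, 6.68, 6.75 and 7.004 in Pit1+/+ pools. Every Prop1df/df pool lies below every pool of both Pit1 groups, with a gap of more than 0.5 units, and the 2 Pit1 groups overlap. Axin2 fell 3.00-fold against Pit1+/+ (log2 change -1.59, SE 0.23, adjusted p = 0.000304) and 3.62-fold against Pit1dw/dw (-1.85, SE 0.23, adjusted p = 0.000106). In Pit1dw/dw versus Pit1+/+ its change was 0.27 (SE 0.23).

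The Axin2 fall passed in each of 23 alternatives in both comparisons, with a largest adjusted p of 0.0376 against Pit1+/+ and 0.00781 against Pit1dw/dw. Without Prop1df/df pools 1 to 3 it was -1.60 (adjusted p = 0.0143) against Pit1+/+ and -1.87 (adjusted p = 0.00781) against Pit1dw/dw. Without the pools high in Prph it was -1.83 (adjusted p = 0.00175) and -2.01 (adjusted p = 0.0025). The smallest change, -0.71 against Pit1+/+ and -0.85 against Pit1dw/dw, came with the mean of its 2 probe sets, and the second of these is dim in every group. The other feedback genes, Nkd1 and Nkd2, which encode Dishevelled-binding inhibitors, did not pass: Nkd1 was 4.85 ± 0.39 in Prop1df/df, 4.93 ± 0.32 in Pit1dw/dw and 5.30 ± 0.52 in Pit1+/+, and Nkd2 was 4.92 ± 0.25 in Prop1df/df, 4.86 ± 0.14 in Pit1dw/dw and 4.79 ± 0.21 in Pit1+/+.

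Genes listed for the other hormone cells of the pituitary were lower in Prop1df/df, as Axin2 and Fzd5 were. Of these, Cga is also a gene of thyrotrophs, which belong to the Pit1 lineage. It averaged 11.28 in Prop1df/df, 12.25 in Pit1dw/dw and 12.80 in Pit1+/+. The mean of 8 such genes (Pomc, Tbx19, Cga, Lhb, Fshb, Gnrhr, Nr5a1 and Pax7), all measured and none dim, was 7.42 to 8.12 in Prop1df/df pools, 8.74 to 9.65 in Pit1dw/dw pools and 8.67 to 9.48 in Pit1+/+ pools. Their summed signal, as log2, was 13.74 to 13.98 in Prop1df/df, 14.48 to 14.70 in Pit1dw/dw and 14.43 to 14.74 in Pit1+/+. Their part in the lower Axin2 and Fzd5 values was not tested. The 5 measured genes of the Pit1 lineage had means of 5.39 to 7.85 in Prop1df/df, 5.05 to 5.72 in Pit1dw/dw and 9.09 to 9.68 in Pit1+/+. Of these 5 genes, 2 were dim in each mutant and 1 in Pit1+/+. The part of this lineage in the Wnt values was not tested either. The pituitary epithelium list (7 of 8 measured, among them Lhx3 and Pitx1) overlapped in all groups, at 6.92 to 7.45 in Prop1df/df, 6.91 to 7.07 in Pit1dw/dw and 6.57 to 7.25 in Pit1+/+.

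**Figure D4:**
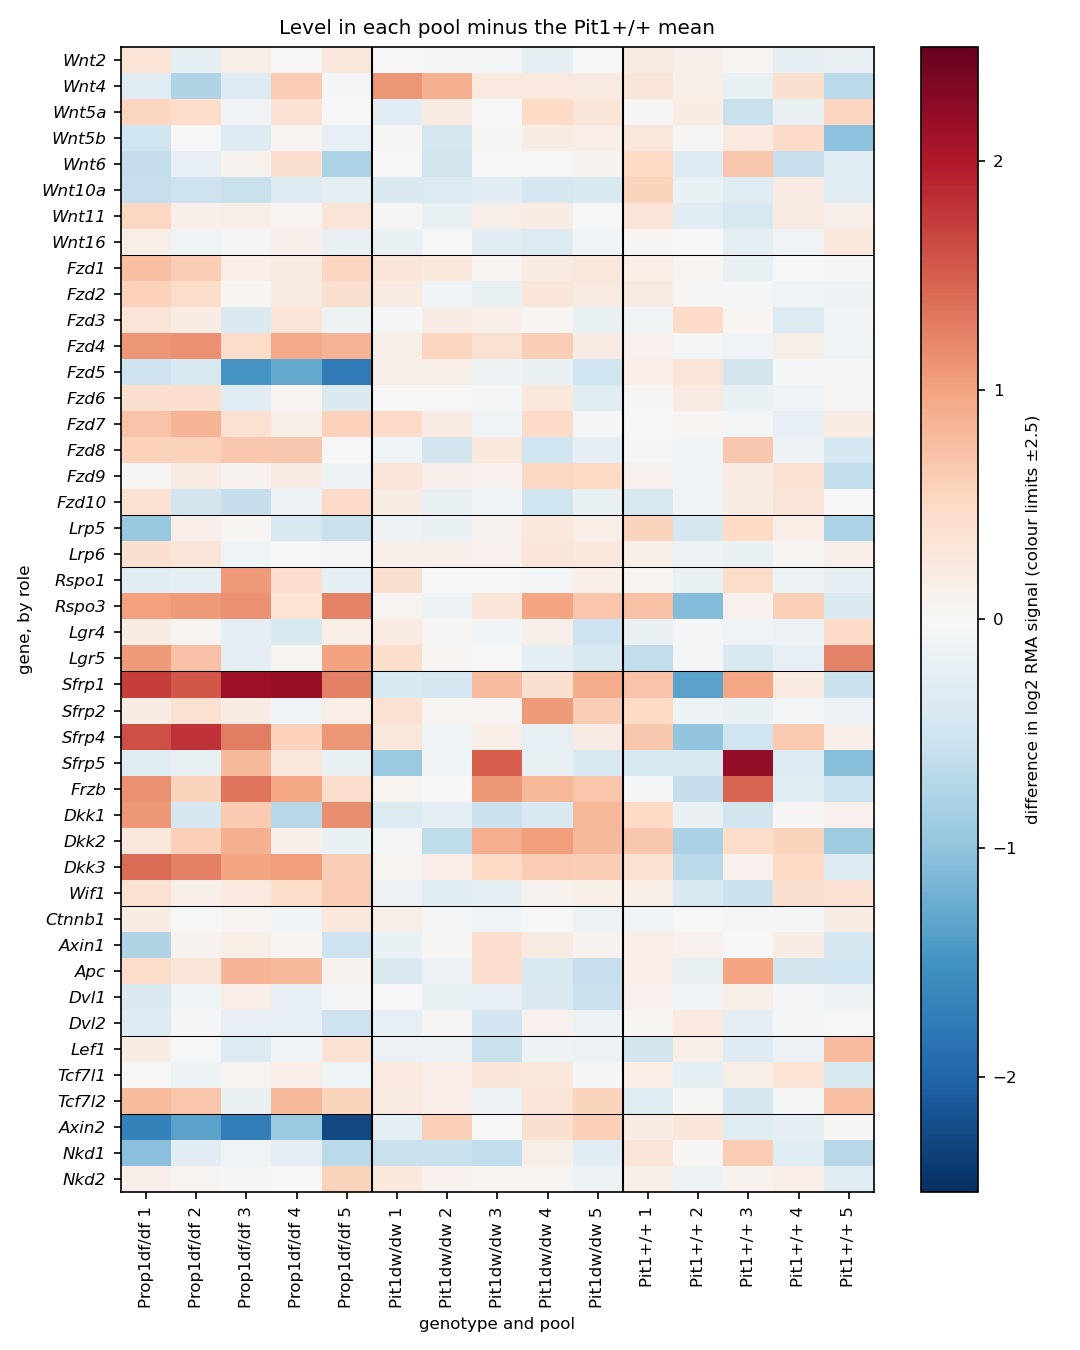
Signal of each of the 44 Wnt genes in each of the 15 pools minus the gene's Pit1+/+ mean, on the log2 scale, with genes grouped by role and colour limits at ±2.5. The Axin2 row is blue in all 5 Prop1df/df pools and the Sfrp1, Sfrp4 and Dkk3 rows are red there. Single pools stand out elsewhere, such as Pit1+/+ pool 3 for Sfrp5 (5.81) and Frzb (5.99).

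Promoter sequence was available for 29 of the 45 genes, in 37 windows of 300 bases that run from 250 before to 50 after a transcript start (RefSeq, GRCm38.p6). The windows of 4 genes past the threshold are shown, the 2 that fell first and then 2 that rose in Prop1df/df, so that the sequence at the start of these transcripts can be read beside their levels. Fzd1 has a window as well, and Sfrp1, Sfrp4 and Dkk3 are named only. Capitals mark the GC box GGGCGG on either strand and, in Fzd7, the TCF/LEF motif CTTTGTT, which lies on the other strand and reads AACAAAG.
Axin2, chr11:108920099-108920398, plus strand: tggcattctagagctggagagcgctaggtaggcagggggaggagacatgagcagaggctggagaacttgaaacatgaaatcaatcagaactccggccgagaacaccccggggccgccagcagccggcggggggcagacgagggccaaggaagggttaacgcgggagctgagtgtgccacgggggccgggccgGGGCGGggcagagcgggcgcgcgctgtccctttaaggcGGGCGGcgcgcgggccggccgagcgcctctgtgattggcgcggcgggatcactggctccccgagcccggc
Fzd5, chr1:64737701-64738000, minus strand: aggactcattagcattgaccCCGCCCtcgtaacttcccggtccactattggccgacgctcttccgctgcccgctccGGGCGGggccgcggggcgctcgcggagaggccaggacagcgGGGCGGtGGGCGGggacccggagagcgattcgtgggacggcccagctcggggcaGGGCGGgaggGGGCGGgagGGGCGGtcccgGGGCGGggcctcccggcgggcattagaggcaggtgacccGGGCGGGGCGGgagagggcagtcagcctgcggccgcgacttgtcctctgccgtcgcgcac
Fzd4, chr7:89404116-89404415, plus strand: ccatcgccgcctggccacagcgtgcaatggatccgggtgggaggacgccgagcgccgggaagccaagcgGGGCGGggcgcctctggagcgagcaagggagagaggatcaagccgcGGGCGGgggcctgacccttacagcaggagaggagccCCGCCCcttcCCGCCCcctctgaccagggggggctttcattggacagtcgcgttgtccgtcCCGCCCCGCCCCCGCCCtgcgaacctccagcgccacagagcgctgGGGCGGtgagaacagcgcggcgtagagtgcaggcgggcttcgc
Fzd7, chr1:59481897-59482196, plus strand: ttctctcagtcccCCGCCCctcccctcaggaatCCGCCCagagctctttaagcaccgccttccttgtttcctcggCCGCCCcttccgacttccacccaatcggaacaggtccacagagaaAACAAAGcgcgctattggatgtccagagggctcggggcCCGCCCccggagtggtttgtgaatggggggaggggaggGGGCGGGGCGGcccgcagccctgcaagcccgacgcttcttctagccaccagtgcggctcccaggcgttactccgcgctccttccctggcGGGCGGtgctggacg
All 4 windows are rich in G and C, at 70.0% for Axin2, 75.7% for Fzd5, 72.7% for Fzd4 and 66.7% for Fzd7. They hold 2 GC boxes in Axin2, 10 in Fzd5, 8 in Fzd4 and 7 in Fzd7, and 35.7% of all 32851 windows hold at least 1. Neighbouring GC boxes may share bases and were counted each, and no TCF/LEF motif overlaps a GC box in the windows shown. The motifs searched for TCF/LEF factors were CTTTGAA or CTTTGAT and, with another pair of last letters, CTTTGTA or CTTTGTT, on both strands, and 16.9% of all windows hold any of them. A match was found in 6 of the 29 genes, Dkk1, Fzd7, Lef1, Tcf7l2, Wnt11 and Wnt5b, of which Fzd7 alone passed in any comparison. In the windows of Axin2, Fzd5, Fzd4 and Fzd1 these letters do not occur.

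Beyond the listed genes, 80 further genes of the pathway were examined, of which 78 were measured. In Prop1df/df versus Pit1+/+, 10 of 78 passed (12.8%, against the 10.6% of all genes given above), 8 rose and 2 fell. Against Pit1dw/dw, 8 passed (10.3%, against 6.26%), 5 rose and 3 fell. In Pit1dw/dw versus Pit1+/+, 2 passed (2.56%, against 0.77%), 1 in each direction. The 12 with the smallest adjusted p are named in what follows, and Btrc, a subunit of the ligase that marks beta-catenin for degradation, also fell in Prop1df/df versus Pit1dw/dw (-0.46, adjusted p = 0.0491) and is named after its value was seen; it was not followed through the alternatives.

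Gpc3, a glypican on the cell surface that binds Wnts and hedgehog ligands, had the largest change of these. It was 8.36, 8.37, 7.53, 7.82 and 7.40 in Prop1df/df pools. It was 6.34, 5.65, 5.38, 6.12 and 5.75 in Pit1dw/dw pools and 5.85, 5.70, 5.02, 5.78 and 6.09 in Pit1+/+ pools. The Prop1df/df pools lie above all others by more than 1 unit, and the Pit1 groups overlap. Gpc3 rose by 2.21 against Pit1+/+ (SE 0.24, adjusted p = 2.78e-05) and by 2.05 against Pit1dw/dw (SE 0.24, adjusted p = 7.25e-05). Both calls held in each of 23 alternatives, with the mesenchyme and matrix covariate among them (1.93, adjusted p = 0.00597, and 1.87, adjusted p = 0.00145).

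Planar polarity genes, of the Wnt branch that orients cells in a sheet, passed in both directions. The cadherin Celsr1 averaged 7.79 ± 0.43 in Prop1df/df, 6.98 ± 0.22 in Pit1dw/dw and 6.84 ± 0.34 in Pit1+/+, and it rose by 0.96 against Pit1+/+ (adjusted p = 0.00581) and by 0.81 against Pit1dw/dw (adjusted p = 0.0234). Its relative Celsr3 averaged 8.55 ± 0.38 in Prop1df/df, 9.18 ± 0.15 in Pit1dw/dw and 9.48 ± 0.14 in Pit1+/+, and it fell (-0.93, adjusted p = 0.00111, and -0.63, adjusted p = 0.0226). For both cadherins the Prop1df/df pools overlap neither Pit1 group. With Prop1df/df pools 1 to 3 left out, the Celsr1 changes were 1.39 (adjusted p = 0.00271) and 1.25 (adjusted p = 0.00762), and Celsr3 changed by -0.83 against Pit1+/+ (adjusted p = 0.00888). Daam1, a formin that binds Dishevelled, averaged 7.83 ± 0.62 in Prop1df/df, 8.84 ± 0.12 in Pit1dw/dw and 8.85 ± 0.32 in Pit1+/+, and it fell too (-1.02, adjusted p = 0.0108, and -1.01, adjusted p = 0.0163). With the mean of its probe sets the Daam1 changes were -0.29 (adjusted p = 0.0861) and -0.18 (adjusted p = 0.334), and without Prop1df/df pools 1 to 3 they were -0.70 (adjusted p = 0.0569) and -0.69 (adjusted p = 0.0873). Against Pit1dw/dw, the Celsr1 call ended without any single one of Prop1df/df pools 4 and 5 or Pit1dw/dw pools 4 and 5 (adjusted p 0.056 to 0.0664). The Celsr3 call there ended without any single one of Prop1df/df pools 2 and 5 or Pit1dw/dw pools 1 to 3 (adjusted p 0.0512 to 0.0613), and without Prop1df/df pools 1 to 3 (-0.53, adjusted p = 0.114).

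**Figure D5:**
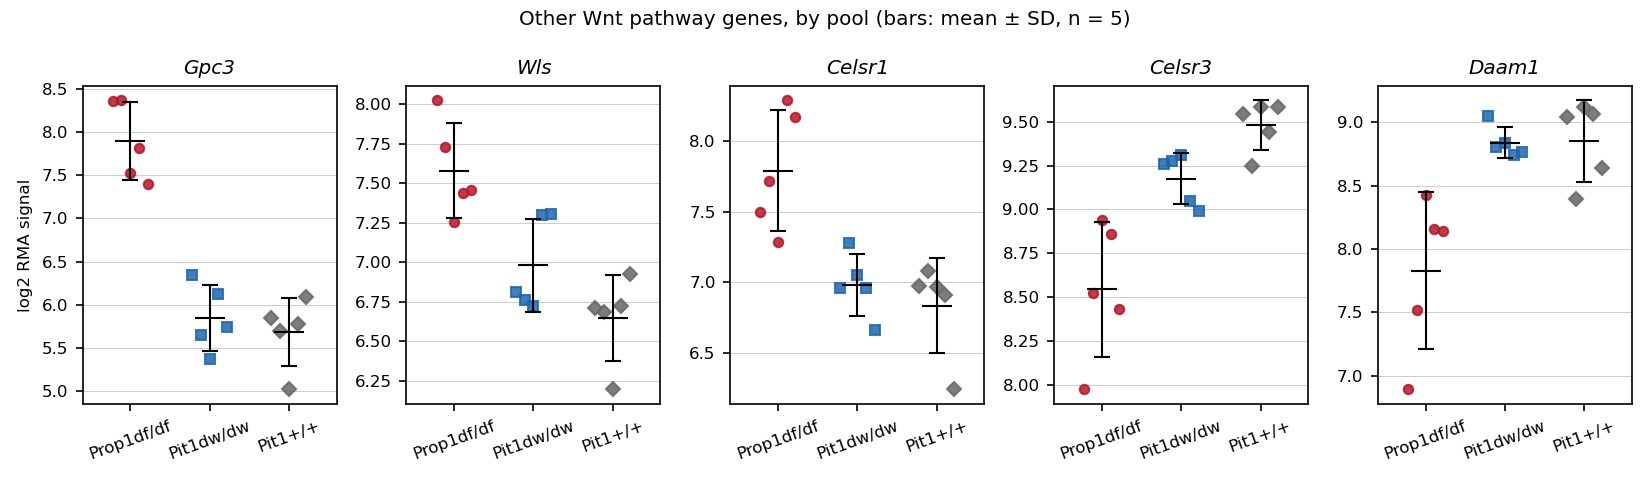
Log2 RMA signal of 5 further Wnt pathway genes, 1 point per pool, with group mean and SD (n = 5). The Prop1df/df pools lie above both Pit1 groups for Gpc3 (7.40 to 8.37) and Celsr1, below them for Celsr3 (7.98 to 8.94), and for Daam1 they reach up to 8.42, which overlaps Pit1+/+.

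Wls, the cargo receptor that carries Wnts to the cell surface, averaged 7.58 ± 0.30 in Prop1df/df, 6.98 ± 0.30 in Pit1dw/dw and 6.65 ± 0.27 in Pit1+/+. It rose by 0.93 against Pit1+/+ (adjusted p = 0.00268), a change of 0.80 without Prop1df/df pools 1 to 3 (adjusted p = 0.0535) and of 0.74 with the mesenchyme and matrix covariate (adjusted p = 0.154). Tnfrsf19, a receptor transcribed in response to beta-catenin in several tissues, averaged 7.37 ± 0.21 in Prop1df/df, 6.54 ± 0.38 in Pit1dw/dw and 6.65 ± 0.30 in Pit1+/+. It rose by 0.72 against Pit1+/+ (adjusted p = 0.0199) and by 0.83 against Pit1dw/dw (adjusted p = 0.0123), the opposite direction to Axin2. With the mean of its probe sets the Tnfrsf19 changes were 0.17 (adjusted p = 0.464) and 0.34 (adjusted p = 0.135). Its call against Pit1+/+ ended without Prop1df/df pool 2 (adjusted p = 0.0555) or Pit1+/+ pool 2 (adjusted p = 0.0562). Without the pools high in Prph its changes were 0.69 (adjusted p = 0.0677) and 0.59 (adjusted p = 0.181). Without Prop1df/df pools 1 to 3 its changes were 0.81 (adjusted p = 0.1) and 0.92 (adjusted p = 0.0866).

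Smaller rises came from Dact1, a Dishevelled-binding protein, with 5.75 ± 0.33 in Prop1df/df, 5.05 ± 0.26 in Pit1dw/dw and 5.14 ± 0.25 in Pit1+/+ (0.61 against Pit1+/+, adjusted p = 0.033, and 0.70 against Pit1dw/dw, adjusted p = 0.0222). Ror1, a receptor of Wnt5a, rose by 0.71 against Pit1+/+ (adjusted p = 0.0345), where its mean of 4.05 is dim, and Kremen1, a Dickkopf receptor, by 0.45 (adjusted p = 0.0412). Dact2, a relative of Dact1, rose by 0.57 against Pit1dw/dw (adjusted p = 0.0382), where its mean of 3.85 is dim. None of these 4 passed without Prop1df/df pools 1 to 3 (adjusted p 0.122 to 0.478). Single pools also ended the calls. For Dact1 against Pit1+/+ these were Prop1df/df pools 1 and 2 and Pit1+/+ pools 1, 3 and 4 (adjusted p 0.0504 to 0.0918), and against Pit1dw/dw Prop1df/df pools 1 and 2 and Pit1dw/dw pools 1 and 3 (0.0588 to 0.0647). For Ror1 they were Prop1df/df pools 1 and 2 and Pit1+/+ pools 1 to 3 (adjusted p 0.0623 to 0.0925), and for Kremen1 Prop1df/df pools 1 and 2 and Pit1+/+ pools 1, 2, 3 and 5 (0.0567 to 0.111). For Dact2 they were Prop1df/df pools 1, 2 and 5 and each Pit1dw/dw pool (adjusted p 0.0538 to 0.0949).

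The comparison within DW/J had 2 calls among these pathway genes. Lrp4, a co-receptor relative that binds sclerostin and agrin, was 9.27, 9.52, 9.19, 9.39 and 9.49 in Pit1dw/dw pools and 8.86, 8.41, 8.53, 8.73 and 9.06 in Pit1+/+ pools. The groups do not overlap, and Lrp4 rose by 0.65 (SE 0.12, adjusted p = 0.0194). In Prop1df/df it averaged 9.15 ± 0.13 and rose by 0.44 against Pit1+/+ (adjusted p = 0.034). Gpc4, a second glypican, was 9.23, 9.03, 9.09, 9.24 and 8.99 in Pit1dw/dw pools and 9.92, 10.22, 9.37, 9.94 and 10.06 in Pit1+/+ pools. It fell by 0.79 without overlap (SE 0.15, adjusted p = 0.0195), and in Prop1df/df it averaged 9.55 ± 0.24. The Lrp4 call in Pit1dw/dw ended without any single one of Pit1dw/dw pools 2, 4 and 5 or Pit1+/+ pools 2 and 4 (adjusted p 0.0512 to 0.0669), and that in Prop1df/df without any single one of Prop1df/df pools 1, 4 and 5 or Pit1+/+ pools 2 to 4 (0.0643 to 0.0912) and without Prop1df/df pools 1 to 3 (0.55, adjusted p = 0.1). The Gpc4 call ended without any single one of Pit1dw/dw pools 2, 3 and 5 or Pit1+/+ pools 1, 2 and 4 (adjusted p 0.0531 to 0.0651). Without the pools high in Prph, the Pit1dw/dw changes were 0.62 for Lrp4 (adjusted p = 0.3) and -0.88 for Gpc4 (adjusted p = 0.0594). With the mesenchyme and matrix covariate, Gpc3 and Celsr1 kept both calls and Celsr3 kept that against Pit1+/+ (-0.91, adjusted p = 0.0494), and the remaining calls of the 12 named genes did not pass, those of Lrp4 (0.61, adjusted p = 0.0673) and Gpc4 (-0.78, adjusted p = 0.0571) in Pit1dw/dw included.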

How the data were processed

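Total RNA pooled from newborn pituitaries was labelled as biotin cRNA and hybridised to Affymetrix mouse expression arrays, 1 array per pool. The deposited values are log2 signals made by the authors with RMA, per the submitters' processing notes, and the sources used here name no version. RMA equalises the distribution of signals across arrays, so a change in most genes together would not be seen. Samples were grouped by title. Of 45101 probe sets, 34945 have 1 gene in the platform annotation, 932 several, 9160 none and 64 are controls. The probe set with the highest mean over 15 arrays stood for each of 18193 genes, and others were looked at beside it. A group mean below 4.37, the median of all values, was called dim.

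One limma fit (version 3.58.1, R 4.3.3) over all 3 groups gave the 3 comparisons, with Benjamini-Hochberg adjustment over all genes and a threshold of 0.05. It was tested on simulated data. The members and lists were chosen with earlier results of these data known. Pool values are given for members past the threshold in any comparison (at most 14) and for Ctnnb1, the uncalled member with the highest mean. Of the further pathway genes past the threshold, the 12 with the smallest adjusted p are named. Alternatives were 9 other settings, each pool left out in turn, and 4 chosen after seeing the data: pools high in Prph left out, Prop1df/df pools 1 to 3 left out, and the mesenchyme and matrix list mean or the Xist level as a covariate. Promoters came from RefSeq, GRCm38.p6.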

Additional observations from a re-analysis of the deposited data

Results flagged for a closer look

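In 13 of 132 sets of 5 pools (9.85%) the highest or lowest pool lay apart from the other 4 by Dixon's criterion, which chance alone gives in about 1 in 20. Pools that lay low were Prop1df/df pool 5 for Fzd8 (5.6, next 6.19), Prop1df/df pool 4 for Rspo3 (7.26, next 7.95), Prop1df/df pool 3 for Tcf7l2 (7.76, next 8.48), Pit1dw/dw pool 4 for Wnt2 (2.52, next 2.71), Pit1dw/dw pool 2 for Wnt5b (6.51, next 6.98) and Wnt6 (4.28, next 4.72), and Pit1dw/dw pool 3 for Lef1 (6.28, next 6.69). Pools that lay high were Pit1dw/dw pool 5 for Dkk1 (4.46, next 3.37), Pit1+/+ pool 1 for Sfrp2 (9.82, next 9.28), Pit1+/+ pool 3 for Sfrp5 (5.81, next 3.26) and Frzb (5.99, next 4.49), and Pit1+/+ pool 5 for Lgr4 (9.34, next 8.81) and Ctnnb1 (12.98, next 12.78). None of the 8 genes past the threshold is among them. Prop1df/df pools 3 and 4, Pit1dw/dw pools 2 and 3 and Pit1+/+ pool 3 are among the pools high in Prph, and the part of this in the outlying values was not tested.

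Probe sets not used for the comparisons gave 2 further calls in limma over all probe sets. Of the 5 unused probe sets of Fzd3, the dimmest rose by 0.74 in Prop1df/df versus Pit1+/+ (adjusted p = 0.0318). The probe set used differed by 0.07, and the remaining 4 by -0.12, -0.46, -0.12 and -0.09, none past the threshold. A second probe set of Sfrp5 rose by 0.53 in Prop1df/df versus Pit1dw/dw (adjusted p = 0.0497), where the probe set used differed by 0.11. That second probe set is dim, with a mean of 2.88 in Pit1dw/dw.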

How the results depend on the processing

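None of the 32 calls of the 8 Wnt genes and the 12 named pathway genes reversed its sign in the alternatives run, and other genes were not followed for sign. Of the Wnt genes, Axin2 in both comparisons of Prop1df/df and Fzd4 against Pit1+/+ passed in all 23 alternatives. The number of Wnt genes past the threshold with 1 pool left out was 0 to 0 in Pit1dw/dw versus Pit1+/+, 6 to 11 in Prop1df/df versus Pit1+/+ and 2 to 5 in Prop1df/df versus Pit1dw/dw. Over all genes it was 83 to 161, 1401 to 3258 and 826 to 1345 in those comparisons. Array weights gave 1 Wnt gene (Wnt10a, -0.58, adjusted p = 0.0269) and 571 genes in all in Pit1dw/dw versus Pit1+/+, 4297 genes in Prop1df/df versus Pit1+/+, and 8 Wnt genes and 2390 in all in Prop1df/df versus Pit1dw/dw. Without the pools high in Prph, 51 genes passed in Pit1dw/dw versus Pit1+/+, and 2 Wnt genes and 746 in all in Prop1df/df versus Pit1dw/dw. With the mesenchyme and matrix covariate, 2 Wnt genes and 497 in all passed in Prop1df/df versus Pit1+/+, and 1 and 637 in Prop1df/df versus Pit1dw/dw. Without Prop1df/df pools 1 to 3 these counts were 3 and 890 against Pit1+/+, and 2 and 503 against Pit1dw/dw, with fewer samples in the fit. The mean of all probe sets gave 3 Wnt genes and 1066 in all in Prop1df/df versus Pit1dw/dw, where Fzd4 (0.36, adjusted p = 0.0589) and Sfrp1 (0.76, adjusted p = 0.0816) were lost. Against Pit1+/+ it lost Fzd1 (0.13, adjusted p = 0.399) and Fzd7 (0.15, adjusted p = 0.401), and the second probe set of Fzd1 and that of Fzd7 are dim. Of the Wnt genes, with only the 2 groups compared in the fit, Fzd1 against Pit1+/+ (adjusted p = 0.0744) and Fzd4 against Pit1dw/dw (adjusted p = 0.0576) did not pass, and with the Xist covariate Sfrp1 against Pit1dw/dw did not (1.56, adjusted p = 0.0566). Of the pathway genes, only the groups compared ended the calls of Lrp4 in Pit1dw/dw (adjusted p = 0.0599) and, in Prop1df/df against Pit1+/+, of Lrp4 (0.0863), Dact1 (0.0653), Kremen1 (0.0843) and Ror1 (0.086). The Xist covariate ended those of Celsr3 (0.0694), Daam1 (0.0509), Dact1 (0.0705) and Dact2 (0.0784) against Pit1dw/dw, and Dact2 was lost in 15 of 23 alternatives. Where no construction shows it, the cause was not tested. Of 15 pairs of pools that share a number, 8 correlated above 0.1 (r from -0.31 to 0.67), with all pairs of pool 3 at 0.51 to 0.67. The numbers were not taken to pair the samples, since not every pair passed 0.1 and the labels tie them to no shared litter or day. With the replicate block, 0 Wnt genes passed in Pit1dw/dw versus Pit1+/+, 11 in Prop1df/df versus Pit1+/+ and 8 in Prop1df/df versus Pit1dw/dw, beside 137, 2138 and 1313 of all genes in the same order of comparisons. Genes gained were Frzb (adjusted p = 0.0261), Fzd8 (0.0463) and Tcf7l2 (0.0473) against Pit1+/+, and Apc (0.0217), Fzd8 (0.0123) and Wif1 (0.0395) against Pit1dw/dw. Among named calls Kremen1 (0.45, adjusted p = 0.0565) did not pass. In all 3 groups 11 of the 44 genes were dim, and small changes in them may have been missed.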
